A study of Mus musculus with 16 samples.

Results

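Interferon-stimulated genes are the genes that a cell switches on when an interferon binds to its surface, and they were followed here as a set of 39 genes in mRNA from the terminal ileum of mice with (Tas1r3+/+) and without (Tas1r3-/-) the taste receptor subunit Tas1r3. The members were taken by gene symbol. They are 39 of the 23299 genes in the deposited table, and all 39 were among the 19042 genes tested, those that reached an RPKM of 1 in 2 or more libraries. By role, 18 were grouped as antiviral effectors, 2 are sensors of foreign nucleic acid, 4 are transcription factors, 11 are interferon-inducible GTPases and 4 serve the processing of antigens for MHC class I. The last 4 are called MHC class I genes below for short, although none encodes an MHC class I chain. The effector group is broad and also holds genes that restrain the response, such as Usp18 and Oasl1.

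Interferons act through a short relay. Type I interferons bind Ifnar1 and Ifnar2, and type III interferons bind Ifnlr1 with Il10rb, a receptor that in the gut is mainly carried by epithelial cells. Both activate a complex that holds Stat2 and Irf9 and binds DNA elements built from repeats of GAAA. Interferon gamma binds Ifngr1 and Ifngr2 and acts through a DNA palindrome called GAS. Its targets include Irf1, the GTPases of the Gbp and Irg families, and the genes of the immunoproteasome and peptide transporter.

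The mice were of C57BL/6 background and were fed for 10 weeks. WT-ND mice were Tas1r3+/+ on the normal diet D12450J with plain water, and KO-ND mice were Tas1r3-/- on the same diet. WT-WD and KO-WD mice were Tas1r3+/+ and Tas1r3-/- on a Western-type diet of D12492 pellets (60% fat) with 30% sucrose in the drinking water. The Tas1r3-/- line lacks a subunit of the sweet and umami taste receptors in all cells, and it had been backcrossed to C57BL/6. Its controls were littermates. Whether DNA linked to the targeted gene differed between the genotypes was not examined. The labels give 2 males and 2 females per group and no age.

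Of the 16 columns, 13 libraries were used: 4 WT-ND, 2 KO-ND, 4 WT-WD and 3 KO-WD. The KO-ND female columns equaled weighted means of the KO-ND male columns in all but 17 and 18 of 59258 transcripts and were left out, so KO-ND is represented by males only. The KO-WD female columns were averaged into 1 library, because their log2 values correlated at 0.992 and differed with an SD of 0.273, against 0.904 to 0.962 and 0.598 to 0.924 for the other same-sex pairs. Of the values above 0, 57.3% had over 6 digits in the KO-WD female 2 column and 0.0395% in the female 1 column. Whether the female 2 column is a measurement of its own is thus uncertain. Tas1r3 was at a scaled RPKM of 0.00532 or less in the 5 KO libraries and between 1.56 and 6.65 in the 8 WT libraries, as labelled. The ileal bile acid carrier genes Fabp6 and Slc10a2 and the brush border gene Vil1 were present in every library. The libraries differed in tissue makeup: the summed enterocyte markers ran from 1687 in KO-WD male 1 to 20008 in WT-WD female 2, and the summed smooth muscle markers from 747 to 4466 in the same libraries, in the opposite order. In whole tissue, fewer cells of a type and less RNA per cell cannot be told apart.

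Values are given as scaled RPKM. The deposited values were taken as RPKM (reads per kilobase of transcript, relative to the reads of the library). They were summed over a gene's transcripts and multiplied by a factor per library. The ND libraries have nearly equal totals, so whether the values follow the definition of RPKM exactly is uncertain. The factor levels most genes across libraries, because the deposited values summed to 817011 to 819916 in the ND libraries and to 542371 to 685274 in the WD libraries. On a transcript of 1 kb, 1 read was worth an RPKM of 0.0692 to 0.139, and the values imply 7003177 to 12384222 reads per library. Converted back, the reads behind a member ranged from about 4.65 to 62.7 per library for Ifi44, the member with the fewest, to 627 to 2614 for Irf1, the member with the most. Where the values of a group are listed together they stand in the order male 1, male 2, female 1, female 2.

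The control elements of these genes can be read in their promoters. RefSeq promoter windows of GRCm38.p6, from 250 bases before to 50 after the start site, matched 31 of the 39 members. The interferon element was searched as GAAANNGAAA on both strands, and it was present in the window of 18 of these 31 members and of 3.99% of all 27025 genes. The GAS palindrome TTCNNNGAA, which reads the same on both strands, was present in 10 of the 31 and in 9.55% of all genes. A match is a description of the letters and not a measured site. The windows of 4 members show the kinds: Isg15 and Ifit1 with GAAANNGAAA alone, Igtp with both motifs, and Irf1 with the palindrome alone. They lie at chr4:156200769-156201068 (minus strand), chr19:34640639-34640938, chr11:58199306-58199605 and chr11:53769764-53770063 (plus strand), are written 5′ to 3′ on the strand of the gene, and have the matched letters in capitals.
Isg15: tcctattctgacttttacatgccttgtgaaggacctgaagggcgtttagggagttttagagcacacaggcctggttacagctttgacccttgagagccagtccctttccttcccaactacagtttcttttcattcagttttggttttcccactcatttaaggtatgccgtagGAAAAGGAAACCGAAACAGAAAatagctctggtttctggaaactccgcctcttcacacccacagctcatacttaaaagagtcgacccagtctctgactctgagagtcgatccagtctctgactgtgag
Ifit1: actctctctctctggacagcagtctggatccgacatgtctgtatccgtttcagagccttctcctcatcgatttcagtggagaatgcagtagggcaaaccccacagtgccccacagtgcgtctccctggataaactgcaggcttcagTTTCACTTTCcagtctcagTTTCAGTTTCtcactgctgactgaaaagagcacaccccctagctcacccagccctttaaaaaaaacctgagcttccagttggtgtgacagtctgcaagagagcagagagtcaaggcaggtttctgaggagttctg
Igtp: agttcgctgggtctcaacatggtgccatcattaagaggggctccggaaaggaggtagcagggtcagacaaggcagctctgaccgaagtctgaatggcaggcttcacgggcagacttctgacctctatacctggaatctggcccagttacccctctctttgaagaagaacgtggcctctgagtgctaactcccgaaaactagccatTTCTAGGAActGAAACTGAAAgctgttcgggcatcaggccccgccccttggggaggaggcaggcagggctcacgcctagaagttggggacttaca
Irf1: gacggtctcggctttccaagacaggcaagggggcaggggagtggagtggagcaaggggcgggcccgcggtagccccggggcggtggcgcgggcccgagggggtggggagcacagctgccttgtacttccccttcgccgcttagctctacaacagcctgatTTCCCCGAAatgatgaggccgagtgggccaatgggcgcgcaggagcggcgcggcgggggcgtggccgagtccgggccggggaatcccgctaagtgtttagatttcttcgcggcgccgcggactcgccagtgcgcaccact
In Isg15, 3 overlapping matches begin 78, 72 and 66 bases before the start site. Ifit1 has 2 separate matches, 104 and 85 bases before it. In Igtp the GAS match begins 45 and the GAAANNGAAA match 34 bases before the start, without overlap, and in Irf1 the GAS match begins 90 bases before it.

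The members covered a wide range of levels. The transcription factor genes were the most abundant role, with mean scaled RPKM over the 13 libraries of 58.3 for Irf1, 56.7 for Irf7, 21.5 for Stat2 and 17.2 for Irf9. Psmb8 and Psmb9, the inducible proteasome subunits, were at 47.8 and 40.6, with library values of 21.4 to 109 for Psmb8 that overlap the 33.6 to 89.2 of Irf1. Among the effectors the highest means were 25.8 for Oasl2 and 18.9 for Oasl1, and the lowest were 0.924 for Rsad2 and 0.764 for Ifi44. Of the GTPases, Ifi47 (18.1) and Irgm1 (16.1) led and Gbp6 (1.59) and Gbp7 (1.68) were lowest.

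Averaged over the 39 members on the log2 scale (scaled RPKM plus 0.5), the level was 2.23 and 2.36 in the WT-ND males and 3.32 and 3.01 in the WT-ND females. It was 2.82 and 3.21 in the KO-ND males. In the WT-WD mice it was 2.73 and 2.35 in males and 3.14 and 3.27 in females, and in the KO-WD mice 2.55 and 2.63 in males and 3.16 in the female. The groups overlapped throughout, with means of 2.73 ± 0.52 (SD, n = 4) in WT-ND, 3.02 ± 0.27 (n = 2) in KO-ND, 2.87 ± 0.42 (n = 4) in WT-WD and 2.78 ± 0.33 (n = 3) in KO-WD. Within each of the 3 groups that hold both sexes, every female lay above every male. WT-ND male 1 held the lowest value of 14 of the 39 members, and KO-ND male 2 held the highest of 11.

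**Figure D1:**
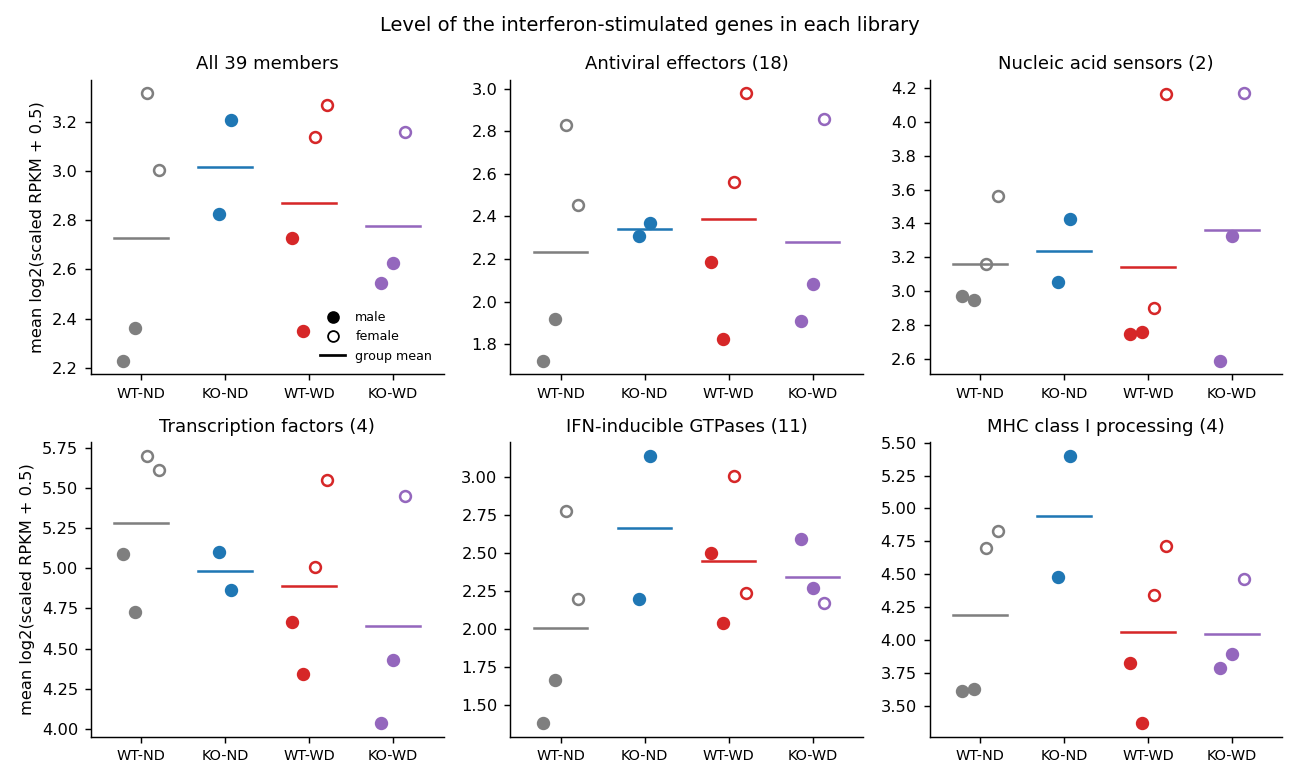
Mean log2(scaled RPKM + 0.5) of all 39 members and of each role (y axis, log2 units, not starting at 0) in each library, by group on the x axis. Filled points are males, open points are females and lines are group means. In the panel of all members the females lie between 3.01 and 3.32 and the males between 2.23 and 3.21, and the KO-ND males are the highest of the males.

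The roles did not follow the libraries alike. The mean level of the GTPases in the WT-WD mice was 2.5 and 2.04 in the males and 3.01 and 2.24 in the females, and in the KO-WD mice it was 2.59 and 2.27 in the males and 2.17 in the female. The female was thus the lowest KO-WD library for this role, whereas for the effectors the KO-WD female, at 2.86, was above the males at 1.91 and 2.08. WT-WD female 2 and the KO-WD female had the most enterocyte marker RNA of their groups (20008 and 14716, against 1687 to 8152 in the other WD libraries). The part of this in the levels was not tested.

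The first comparison asked whether the Western-type diet changed the interferon-stimulated genes in Tas1r3+/+ mice. No member was called in limma with a minimum fold change of 2 at an adjusted p below 0.01, a mark that 0.00525% of all genes tested passed. At an unadjusted p under 0.05, 2 of the 39 members were higher and 0 lower on the WD, while 15.5% of all genes passed in either direction. The fitted log2 difference was positive in 22 members and negative in 17, with a median of 0.20 (beside 0.02 for all genes) that became -0.22 with unscaled values, -0.19 at a mean RPKM of at least 5 and -0.01 without WT-ND male 1. The unscaled median of all genes was -0.38. Without WT-ND male 2 the median of the members was 0.02, and it was 0.40 without WT-ND female 1 and 0.41 without WT-WD male 2.

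By role, the fitted difference was positive in 10 of 11 GTPases, with a median of 0.47, and negative in all 4 transcription factors, with a median of -0.37. It was negative in 3 of the 4 MHC class I genes, with a median of -0.50, and the difference between roles was not tested. Nlrc5, the transactivator of MHC class I genes, had scaled RPKM of 1.32, 0.563, 4.93 and 4.48 on the ND and 4.67, 2.32, 11 and 6.56 on the WD. The groups overlapped and the fitted difference was 1.12 ± 0.53 on the log2 scale (SE; limma adjusted p = 0.333). Ifi44, an effector whose action is less well known, was at 0.15, 0.333, 0.2 and 0.351 on the ND and 1.04, 0.658, 2.19 and 0.991 on the WD. All 4 WD values lay above all 4 ND values (difference 1.12 ± 0.31, limma adjusted p = 0.137, two-sided exact permutation p = 0.0286, the smallest that 4 against 4 allows). Ifi44 and Trim30a were the members with this order, beside 4.2% of all genes, and no member had the reverse order, beside 6.3%. Ifi44 is the member with the fewest reads.

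The guanylate-binding protein genes Gbp3 and Gbp2, whose products attack the membranes around intracellular microbes, came next. Gbp3 was at 1.47, 1.63, 3.73 and 2.43 on the ND and 4.53, 3.71, 6.71 and 2.54 on the WD. Gbp2 was at 2.92, 2.99, 8.9 and 5.04 on the ND and 12, 6.3, 14.9 and 3.25 on the WD. Both groups overlapped, with differences of 0.79 ± 0.37 and 0.75 ± 0.45 (limma adjusted p = 0.332 and 0.44).

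On the lower side were Oas3, a maker of the 2′-5′ oligoadenylates that activate RNase L, and Oasl1, a relative known to restrain Irf7 translation. Oas3 was at 2.26, 1.58, 7.19 and 5.92 on the ND and 1.21, 0.776, 1.83 and 7.3 on the WD (difference -0.71 ± 0.65). Oasl1 was at 25.1, 20.3, 24.6 and 30.2 on the ND and 11.8, 11.1, 10.3 and 43.6 on the WD (difference -0.65 ± 0.54). In both genes 3 of the WD libraries were low and WT-WD female 2 was as high as the highest ND library or higher. Tap1, which carries peptides into the endoplasmic reticulum for MHC class I, was at 13.6, 21.1, 25.7 and 24.2 on the ND and 10.9, 9.72, 12.8 and 21 on the WD. Irf7, the main amplifier of type I interferon production, was at 66.3, 73.7, 81.8 and 76.6 on the ND and 39.9, 26.7, 52.6 and 117 on the WD. The differences of -0.64 ± 0.32 and -0.55 ± 0.51 did not pass (limma adjusted p = 0.351 and 0.628), and the smallest adjusted p of all 39 members was that of Ifi44.

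The same diet contrast in Tas1r3-/- mice compared 3 KO-WD with 2 KO-ND libraries, all of the latter male. No member was called in limma, and 0% of all genes were. At an unadjusted p under 0.05, 1 member was higher and 3 were lower on the WD, beside 5.49% of all genes in either direction. The fitted difference was negative in 28 of 39 members, with a median of -0.25 beside 0.00 for all genes. It stayed negative in the 20 alternatives run, between -0.61 without scaling (where the median of all genes was -0.35) and -0.09 without KO-ND male 2. With sex in the model 9 members, all lower on the WD, had an unadjusted p under 0.05, against 8.74% of all genes, and the median was -0.54.

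The most negative differences were those of 3 neighbouring genes of the MHC region, and none of them passed the adjusted threshold. Psmb9, Tap1 and Psmb8 lie at chr17:34181987-34187764, chr17:34187553-34197225 and chr17:34197721-34201454, and Psmb9 (minus strand) and Tap1 (plus strand) are read in opposite directions and overlap by 212 bases. The windows around the start sites of Psmb9 and Tap1 share 275 bases. Psmb9 was at 49.1 and 82.2 on the ND and 22.5, 27.8 and 39.4 on the WD. Tap1 was at 20.1 and 44.5 on the ND and 12.4, 10.7 and 19.4 on the WD, and Psmb8 at 58.6 and 109 on the ND and 29, 32.8 and 53.8 on the WD. In all 3 genes both ND values lay above the 3 WD values, with KO-ND male 2 the highest. This order was shown by 5 of 39 members (with Igtp and Irgm1) and by 10.1% of all genes. The differences were -1.11 ± 0.48, -1.10 ± 0.41 and -1.10 ± 0.48 (limma adjusted p = 0.901, 0.874 and 0.901), and 3 against 2 cannot give an exact permutation p below 0.1. In Tas1r3+/+ mice the corresponding differences were -0.53 ± 0.37, -0.64 ± 0.32 and -0.47 ± 0.37. Oas3, at 3.31 and 5.32 on the ND and 0.378, 3.19 and 4.04 on the WD, completed the list (difference -0.94 ± 0.84, groups overlapping).

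Higher on the WD in the fit was Mx1, a gene of the dynamin-like GTPase family. It was at 0.727 and 0.395 on the ND and 1.09, 1.08 and 3.9 on the WD, so that the KO-WD female stood well above the other libraries, and it was the 1 member with all WD values above all ND values, beside 10.8% of all genes (difference 1.09 ± 0.49, limma adjusted p = 0.901). Ifih1, the RNA sensor MDA5, was at 5.51 and 6.44 on the ND and 4.91, 7.89 and 13 on the WD (difference 0.40 ± 0.39). Trim30a was at 2.42 and 1.86 on the ND and 2.49, 2.01 and 4.86 on the WD (difference 0.38 ± 0.39). In both genes the KO-WD female was the highest of the 5 libraries, and the KO-WD males overlapped the KO-ND males. Cmpk2, a mitochondrial nucleotide kinase, was at 4.29 and 6.59 on the ND and 3.98, 5.01 and 13.6 on the WD, and its difference of 0.27 ± 0.45 became -0.23 without the KO-WD female.

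The third comparison asked whether loss of Tas1r3 changed these genes in WD-fed mice. No member was called in limma, beside 0.0105% of all genes, and no member had an unadjusted p under 0.05, beside 2.65% of all genes. The fitted difference was positive in 15 members and negative in 24, with a median of -0.11 beside -0.01 for all genes. This median was negative in 16 of 22 alternatives and positive in the others, at 0.01 with sex in the model, 0.28 with the replicate number as a block, 0.16 in males only, 0.02 with all 16 columns, 0.09 without KO-WD male 1 and 0.04 without WT-WD female 1.

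Zbp1, a sensor of Z-form nucleic acid, had the largest positive difference. It was at 5.84, 3.9, 6.82 and 19.2 in WT-WD and 6.22, 11.5 and 23.4 in KO-WD mice (difference 0.64 ± 0.51, limma adjusted p = 1). Mx1 was at 1.03, 0.848, 0.661 and 1.85 in WT-WD and 1.09, 1.08 and 3.9 in KO-WD (difference 0.53 ± 0.41). Isg15, which encodes a ubiquitin-like protein, was at 7.74, 5.83, 13.9 and 30.3 in WT-WD and 8.88, 10.4 and 27.7 in KO-WD, and its difference of 0.20 ± 0.58 became -0.29 without the KO-WD female and -0.10 without WT-WD male 2. Irgm2, a regulator of the other Irg GTPases, was at 7.56, 4.46, 11.4 and 5.59 in WT-WD and 9.48, 7.71 and 6.7 in KO-WD (difference 0.19 ± 0.41). The ranges of the genotypes overlapped in all 4 genes.

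Irf7 had the largest negative difference, with 39.9, 26.7, 52.6 and 117 in WT-WD and 13.8, 20.6 and 80.2 in KO-WD mice (-0.82 ± 0.55, limma adjusted p = 1). Oasl1 was at 11.8, 11.1, 10.3 and 43.6 in WT-WD and 4, 9.96 and 28.4 in KO-WD, a difference of -0.55 ± 0.58 that became 0.13 without KO-WD male 1. In both genes the KO-WD males were the lowest of the 7 libraries and WT-WD female 2 was the highest. Cmpk2 was at 6.99, 9, 9.58 and 14.8 in WT-WD and 3.98, 5.01 and 13.6 in KO-WD (difference -0.54 ± 0.37). Ifi44 was at 1.04, 0.658, 2.19 and 0.991 in WT-WD and 1.26, 0.774 and 0.339 in KO-WD, a difference of -0.41 ± 0.33 that was 0.18 in males only. Both ranges overlapped.

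On the ND, the genotype comparison set 2 KO-ND males against 2 WT-ND males and 2 WT-ND females. No member was called in limma, and 0% of all genes were. At an unadjusted p under 0.05, 2 members were higher in KO-ND and 0 lower, beside 4.73% of all genes in either direction. The fitted difference was positive in 29 of 39 members, with a median of 0.35 beside 0.01 for all genes, and it was positive in all 11 GTPases and all 4 MHC class I genes. The median was positive in the 21 alternatives run, from 0.16 without KO-ND male 2 to 0.88 in males only. This comparison and the diet comparison in Tas1r3+/+ mice share the WT-ND libraries, and their differences are not independent.

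The largest positive differences were those of GTPases and Nlrc5. Igtp, also called Irgm3, which guards the membranes of host cells from the Irg GTPases, was at 3.02, 4.03, 14.1 and 7.88 in WT-ND and 10.9 and 22 in KO-ND mice (difference 1.27 ± 0.54, limma adjusted p = 0.895). KO-ND male 2 was above all WT-ND libraries and KO-ND male 1 lay within their range. The gene lies at chr11:58199556-58207591, and its annotation overlaps that of Irgm2 on the same strand by 7974 bases, so reads of these genes may be shared. Nlrc5 was at 1.32, 0.563, 4.93 and 4.48 in WT-ND and 3.6 and 7.29 in KO-ND (difference 1.07 ± 0.65).

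Tgtp2 was at 0.386, 1.08, 4.13 and 2.08 in WT-ND and 1.87 and 6.55 in KO-ND (difference 1.02 ± 0.61). It has a near-identical neighbour, Tgtp1, at 0.467, 1.29, 3.23 and 1.89 in WT-ND and 1.34 and 5.47 in KO-ND, and how the quantification divided reads between them is uncertain. Iigp1, which coats the vacuoles of intracellular parasites, was at 1.32, 1.16, 3.38 and 1.6 in WT-ND and 2.14 and 7.04 in KO-ND (difference 1.00 ± 0.56). In all 3 genes KO-ND male 2 held the highest of the 6 values.

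A few members pointed the other way on the ND. Oasl1 was at 25.1, 20.3, 24.6 and 30.2 in WT-ND and 16.8 and 9.24 in KO-ND mice (difference -0.96 ± 0.66). Irf7 was at 66.3, 73.7, 81.8 and 76.6 in WT-ND and 54.7 and 32.8 in KO-ND (difference -0.80 ± 0.62). Both KO-ND values were below all WT-ND values of either sex in these genes. Cmpk2, at 7.22, 11.2, 7.66 and 11.3 in WT-ND and 4.29 and 6.59 in KO-ND, and Ifih1, at 8.84, 10.3, 7.69 and 11.3 in WT-ND and 5.51 and 6.44 in KO-ND, showed the same order (differences -0.73 ± 0.42 and -0.62 ± 0.37). These 4 of 39 members lay below all WT-ND values without overlap, beside 13.3% of all genes, so the share of the members is near that of all genes. In the other direction 2 members, Ifi44 (0.80 ± 0.38) and Bst2 (0.88 ± 0.40), lay above all WT-ND values, beside 8.67% of all genes. The limma adjusted p was 0.895 for Oasl1, Irf7, Cmpk2 and Ifih1, and the exact permutation p for Oasl1, Irf7 and Ifih1 was 0.0667, the smallest that 2 against 4 allows. Vil1, at 812, 663, 576 and 883 in WT-ND and 453 and 346 in KO-ND mice, and the sum of the enterocyte markers, at 9616 to 15134 and 6154 to 7026, were lower in the same libraries. The part of this in the result was not tested.

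**Figure D2:**
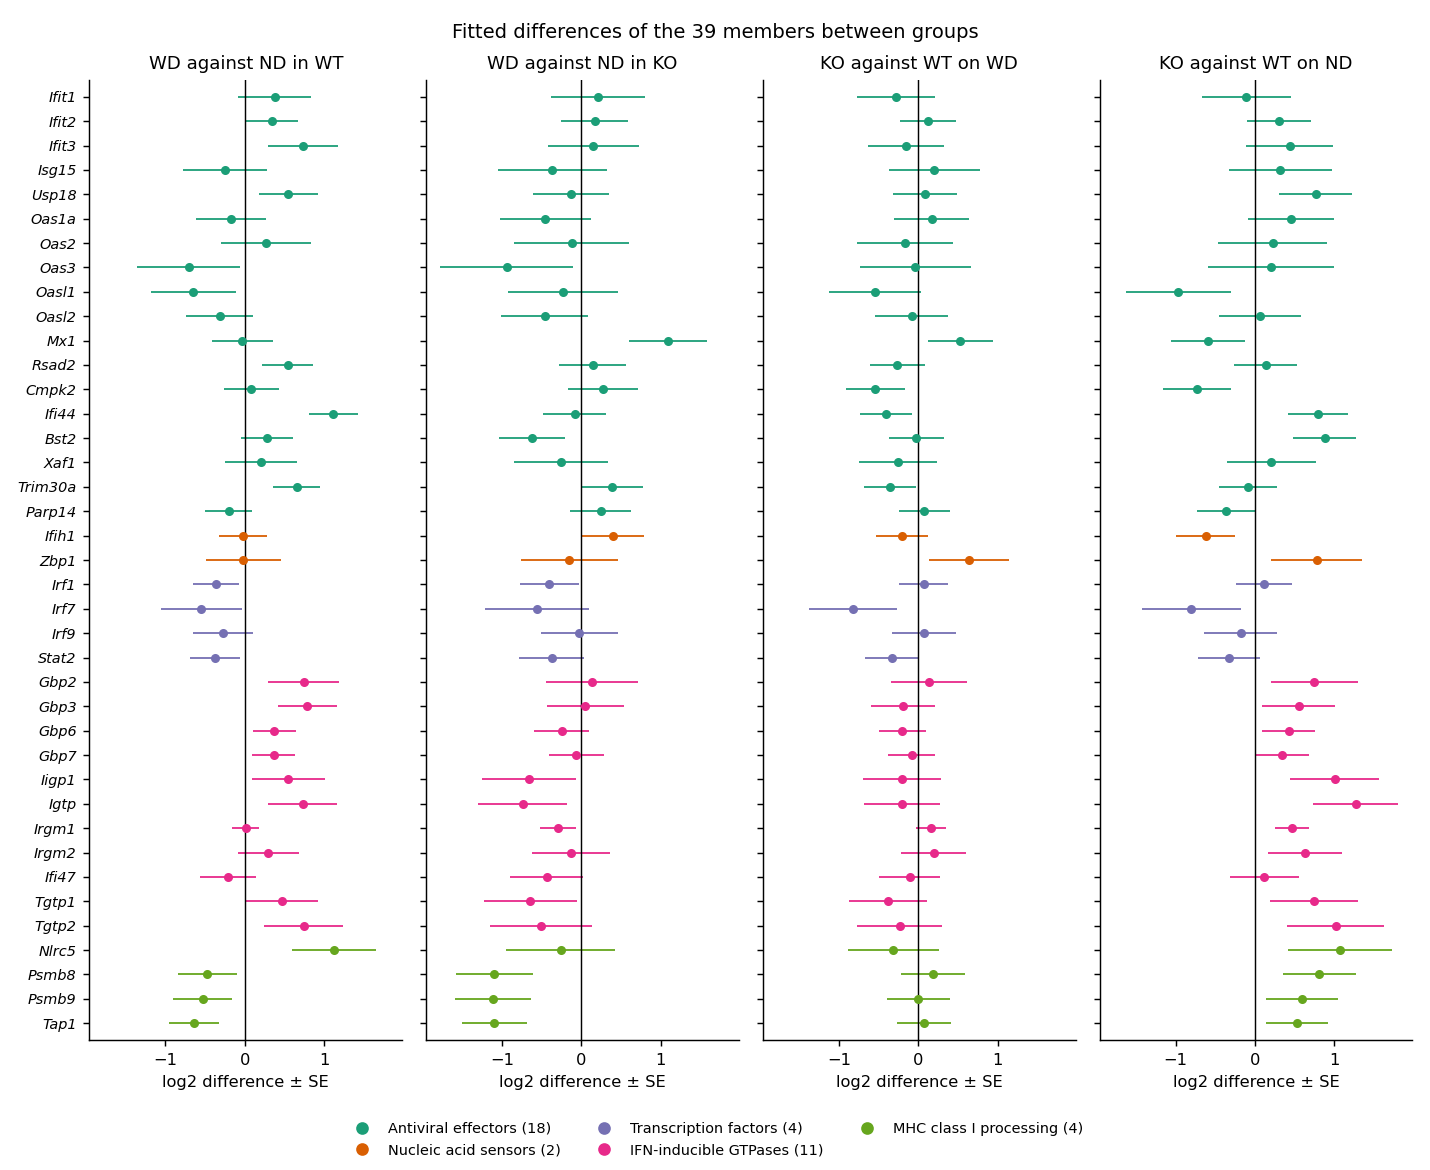
Fitted log2 difference of each of the 39 members (points, with SE as bars, on the x axis) in the 4 comparisons between groups, coloured by role. No member passed the threshold in any panel, and in KO against WT on ND all 11 GTPases and all 4 MHC class I genes lie to the right of 0.

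The interaction of genotype and diet, the difference between the diet effects of the genotypes, gave no called member in limma, and 0% of all genes were called. At an unadjusted p under 0.05 it gave 1 member (Ifi44, -1.20 ± 0.50, limma adjusted p = 1), beside 1.43% of all genes. The fitted interaction was negative in 33 of 39 members, with a median of -0.39 beside -0.005 for all genes, and in all 11 GTPases and all 4 MHC class I genes. The median was -0.16 without WT-ND male 1, -0.25 without WT-ND male 2, -0.18 without KO-ND male 2 and -0.63 without the KO-WD female. It was -0.69 in males only, and 24 members were negative without WT-WD female 2 or without KO-WD male 1. KO-ND, the group without females, enters both the interaction and the genotype comparison on the ND. With sex in the model, 35 of 39 members had a negative interaction, with a median of -0.60 beside 0.001 for all genes. In that limma fit 6 members, all negative, had an unadjusted p under 0.05, beside 344 of 19042 genes in either direction. There, 0 members had an adjusted p under 0.05.

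Every member was fitted higher in females than in males, a comparison that was added after the levels had been seen. With sex added to the model of the 4 groups, the 39 differences of females over males had a median of 0.75 beside -0.01 for all genes. No member was called at that adjusted p and fold change, which 0.042% of all genes passed. At an adjusted p under 0.05, 4 members were higher in females, beside 0.194% of all genes higher in females. At an unadjusted p under 0.05 there were 25 members, all higher in females, beside 19.3% of all genes in either direction. The difference rests on 5 female libraries and the males of the 3 groups that hold both sexes. The KO-ND males enter this fit only through the estimate of the spread.

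Isg15 had scaled RPKM of 6.83 and 10.9 in the WT-ND males and 28.2 and 18.9 in the WT-ND females, 18.5 and 17.2 in the KO-ND males, 7.74 and 5.83 in the WT-WD males and 13.9 and 30.3 in the WT-WD females, and 8.88 and 10.4 in the KO-WD males and 27.7 in the KO-WD female. Its difference was 1.46 ± 0.21 (limma adjusted p = 0.0225). In each group that holds both sexes the females were above the males, and the KO-ND males lay above the males of the other groups. Ifit1, whose product binds viral RNA that lacks the host cap, was at 2.66 and 3.15 in the WT-ND males and 7.68 and 7.27 in the WT-ND females, 3.56 and 5.21 in the KO-ND males, 5.41 and 3.65 in the WT-WD males and 7.89 and 9.64 in the WT-WD females, and 2.94 and 3.39 in the KO-WD males and 12.4 in the KO-WD female. Its difference was 1.25 ± 0.18 (limma adjusted p = 0.0231), and all 5 females were above all 8 males.

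Irf9, the DNA-binding subunit of the complex that type I and III interferons activate, was at 15 and 9.41 in the WT-ND males and 28.5 and 26.2 in the WT-ND females, 18.1 and 14 in the KO-ND males, 12.5 and 9.16 in the WT-WD males and 17.1 and 24.4 in the WT-WD females, and 12 and 13.2 in the KO-WD males and 23.8 in the KO-WD female. Its difference was 1.00 ± 0.17 (limma adjusted p = 0.0329), with the sexes apart within each group. Ifi47, an Irg-type GTPase, was at 11.7 and 13.2 in the WT-ND males and 33.7 and 22.6 in the WT-ND females, 17 and 24.1 in the KO-ND males, 11.9 and 13 in the WT-WD males and 16.6 and 25.4 in the WT-WD females, and 10.8 and 13.1 in the KO-WD males and 22.9 in the KO-WD female. The difference of Ifi47 was 0.91 ± 0.17 (limma adjusted p = 0.0479). For each of these 4 genes the two-sided exact permutation of sex within groups gave p = 0.00926, the smallest that this exchange allows. The genes were picked by their difference between the sexes in the same values, so this p is not separate support. Such a p needs the sexes to be apart in the same direction in all 3 groups. Of 19042 genes, 734 had every female above every male in all 3 groups, and 929 had every female below.

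These calls were sensitive to single libraries. The count of members at an adjusted p under 0.05 was 0 without WT-ND female 1, without WT-WD male 2, without KO-WD male 2 and without the KO-WD female, and 10 without WT-WD female 1. Leaving out any of the remaining libraries gave 1 to 3 members. It was 0 in the WT groups alone and in the WD groups alone, each fitted on fewer libraries, and 8 when only genes with a mean RPKM of at least 5 were tested. In the 25 alternatives run the median difference was between 0.63 and 1.02. In the 22 of them that tested all 39 members, 35 to 39 were fitted higher in females, and in the others 24 of 24 (mean RPKM of at least 5), 38 of 38 (WT groups alone) and 36 of 37 (WT-ND alone) were.

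**Figure D3:**
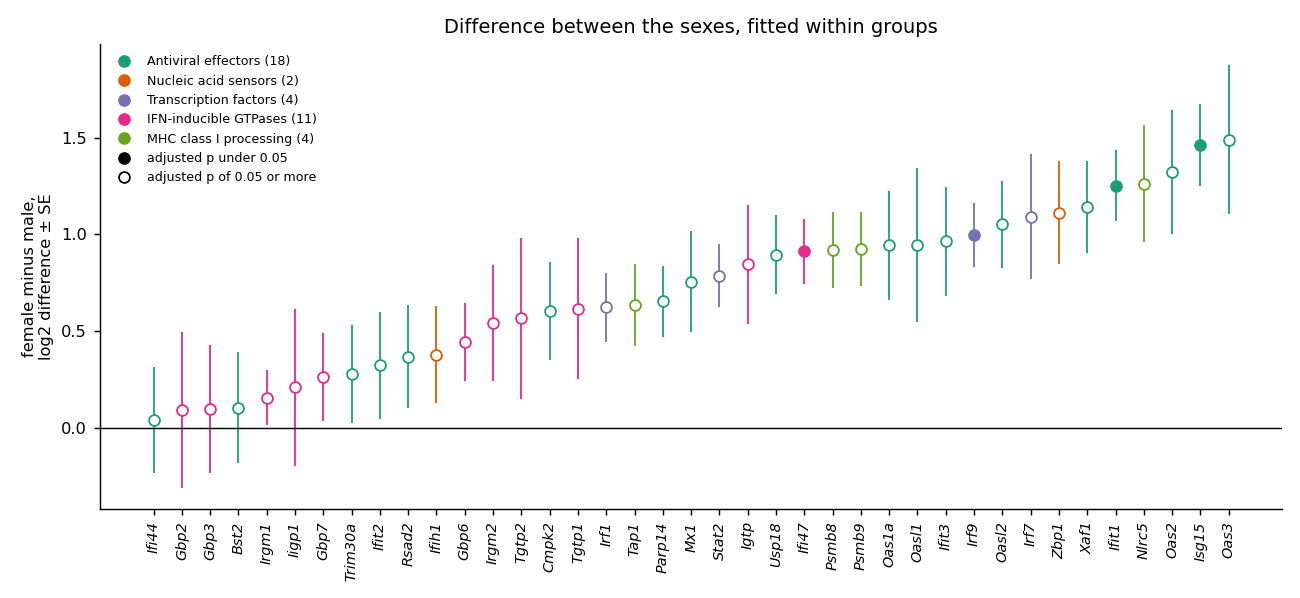
Difference of females over males (y axis, log2 units, with SE as bars) for each of the 39 members (x axis, in rising order), fitted with the 4 groups in the model and coloured by role. All 39 values lie above 0, from 0.04 for Ifi44 to 1.49 for Oas3, and the filled points mark the 4 members with an adjusted p under 0.05.

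In WT-ND, 37 of 39 members had a higher female mean (median difference 0.85). In WT-WD 36 did (median 0.59), and in KO-WD, with 1 female library, 28 did (median 0.75). Of all genes, 47.2%, 50% and 48.9% had a higher female mean in these groups. In 20 members every female was above every male in all 3 groups, a pattern shown by 3.85% of all genes tested, and no member showed the reverse. These 20 were Ifit1, Ifit3, Isg15, Usp18, Oas2, Oas3, Oasl2, Xaf1, Parp14, Zbp1, Irf1, Irf7, Irf9, Stat2, Gbp6, Ifi47, Nlrc5, Psmb8, Psmb9 and Tap1.

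By role, the difference of females over males had a median of 0.92 in the effectors, 0.89 in the transcription factors, 0.92 in the MHC class I genes and 0.45 in the GTPases. All 4 transcription factors and all 4 MHC class I genes had an unadjusted p under 0.05, as did 13 of 18 effectors, 1 of 2 sensors and 3 of 11 GTPases, beside 19.3% of all genes in either direction. All members that passed were higher in females, whereas the share of all genes counts both directions, so the shares are not like measures. For the GTPases, 3 of 11 is not read as a result. The differences between roles were not tested. The largest single differences were those of Oas3 (1.49 ± 0.39), Isg15 and Oas2 (1.32 ± 0.32), and the smallest were those of Ifi44 (0.04 ± 0.27), Gbp2 (0.09 ± 0.40), Gbp3 (0.10 ± 0.33) and Bst2 (0.10 ± 0.29), the last a tether of budding virus particles.

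The inducible proteasome genes Psmb8 and Psmb9 give the pattern at high levels. Psmb8 was at 30.0 and 31 in the WT-ND males and 56.6 and 81.2 in the WT-ND females, 58.6 and 109 in the KO-ND males, 28.7 and 21.4 in the WT-WD males and 34.1 and 54.3 in the WT-WD females, and 29 and 32.8 in the KO-WD males and 53.8 in the KO-WD female (difference 0.92 ± 0.20, limma adjusted p = 0.0627). The females were above the males of their own group, and KO-ND male 2 was the highest library of all. Psmb9 followed the same order, at 28.1 and 31.5 in the WT-ND males and 55.4 and 63.9 in the WT-ND females, 49.1 and 82.2 in the KO-ND males, 23.2 and 17.4 in the WT-WD males and 31.2 and 56.3 in the WT-WD females, and 22.5 and 27.8 in the KO-WD males and 39.4 in the KO-WD female (difference 0.92 ± 0.19).

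**Figure D4:**
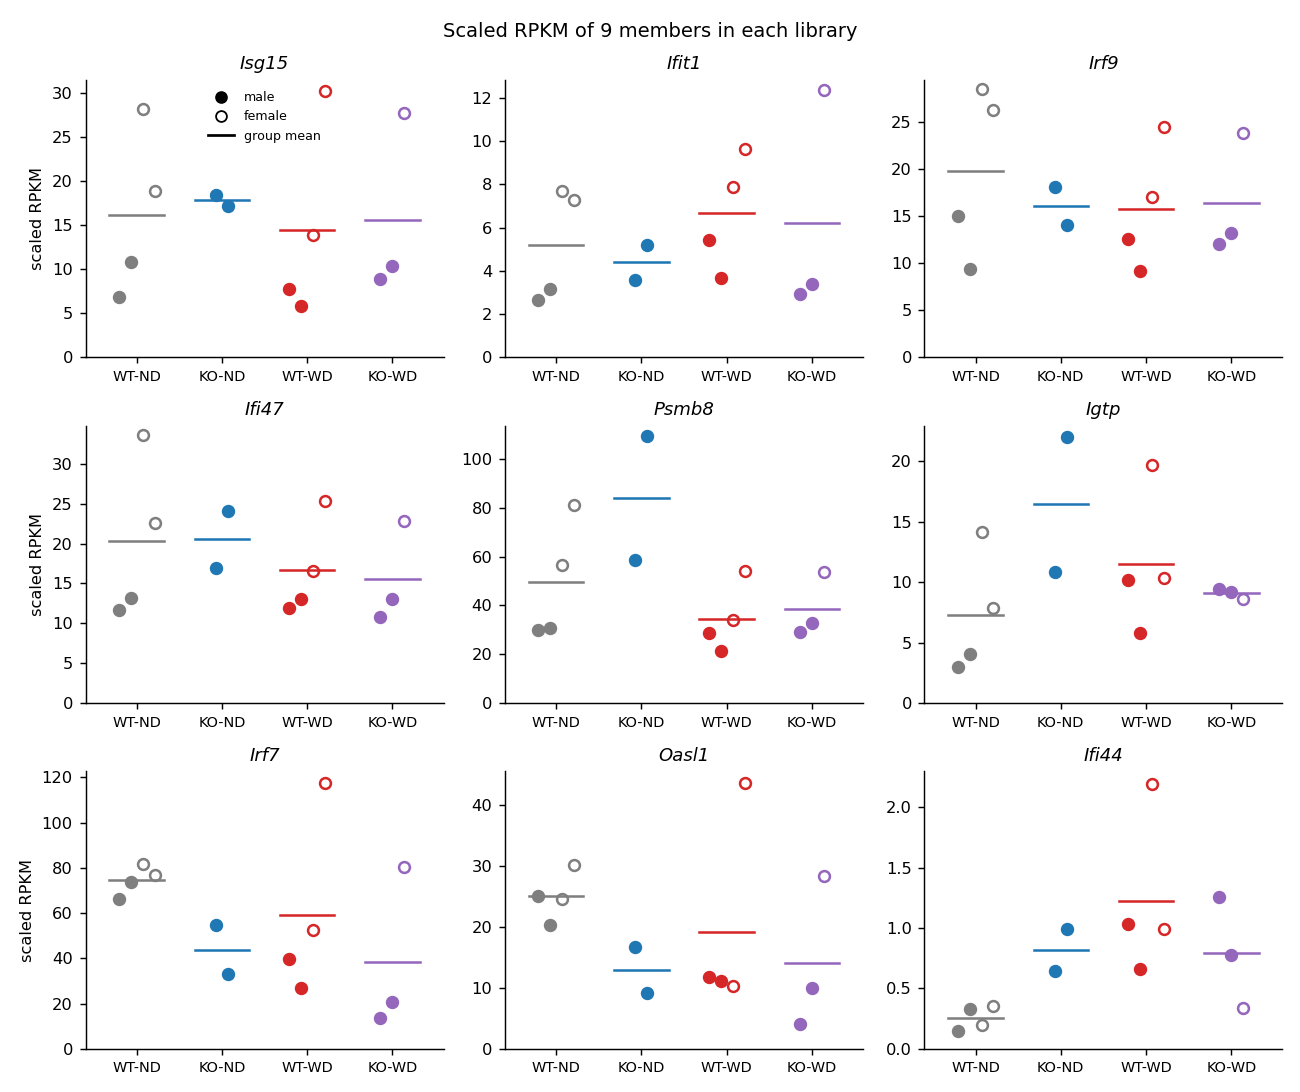
Scaled RPKM (y axis, starting at 0) of 9 members in each library, by group on the x axis, with males filled, females open and group means as lines. Isg15, Ifit1, Irf9, Ifi47 and Psmb8 show the females above the males of their group, Oasl1 shows WT-WD female 2 at 43.6 above the other WT-WD libraries, and Ifi44 shows the WT-ND libraries at 0.15 to 0.351.

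Other RNA moved with sex in these libraries. All 8 T cell markers were above 0 in every library, and their summed scaled RPKM was 7.64 and 9.9 in the WT-ND males and 26.3 and 21.4 in the WT-ND females. It was 21.4 and 17 against 33 and 42.8 in WT-WD, 21 and 14.5 against 26.6 in KO-WD, and 12 and 27.8 in the KO-ND males. The females were thus above the males of their group for the sum of these markers as well. In the fit 7 of 8 were higher in females, with a median of 1.06. At an unadjusted p under 0.05 there were 6, beside 19.3% of all genes in either direction. All 4 adipocyte markers were higher in females at an unadjusted p under 0.05 (median 1.42), beside the same share of all genes. The enterocyte markers were also higher in females in 7 of 7 tested (median 0.72), and the fibroblast markers in 0 of 4 (median -0.88). Among further lists, the goblet and B cell markers were higher in 5 of 5 tested each. The Paneth markers were higher in 0 of 6, the plasma cell markers in 0 of 4 and the smooth muscle markers in 0 of 5. Whether these cells take part in the difference of the interferon-stimulated genes was not tested.

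Because the KO-ND libraries are male and the WT-ND libraries are of both sexes, the genotype comparison on the ND was also made with sex taken into account. With sex in the model, 33 of 39 members had a positive difference with a median of 0.78, and 10 had an unadjusted p under 0.05, all higher in KO-ND, beside 3.89% of all genes. In males only, where Mx1 did not pass the filter, 34 of the 38 members tested had a positive difference with a median of 0.88, and 18 had an unadjusted p under 0.05, all higher in KO-ND, beside 8.92% of all genes. No member had an adjusted p under 0.05 in limma in either fit. Both KO-ND males were above both WT-ND males in 27 of 39 members, beside 22.2% of all genes, and below both in 4 members (Oasl1, Cmpk2, Ifih1 and Irf7), beside 26% of all genes. These 27 include all 11 GTPases, with WT-ND males at 3.02 and 4.03 and KO-ND males at 10.9 and 22 for Igtp. In the same libraries the T cell markers summed to 7.64 and 9.9 in the WT-ND males and 12 and 27.8 in the KO-ND males. The smooth muscle markers summed to 1291 and 841 in the WT-ND males and 2772 and 1622 in the KO-ND males. Both sums were higher in the KO-ND males, and their part in the result was not tested. The 27 members also include Usp18, the protease that removes Isg15 from proteins, at 0.744 and 0.717 in the WT-ND males and 2.74 and 2.46 in the KO-ND males. WT-ND males 1 and 2 held the lowest value of 14 and 6 of the 39 members. Among the WD males, both KO were above both WT in 7 of 39 members, beside 2942 of 19042 genes. They were below both in 7 members, beside 3469 genes.

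**Figure D5:**
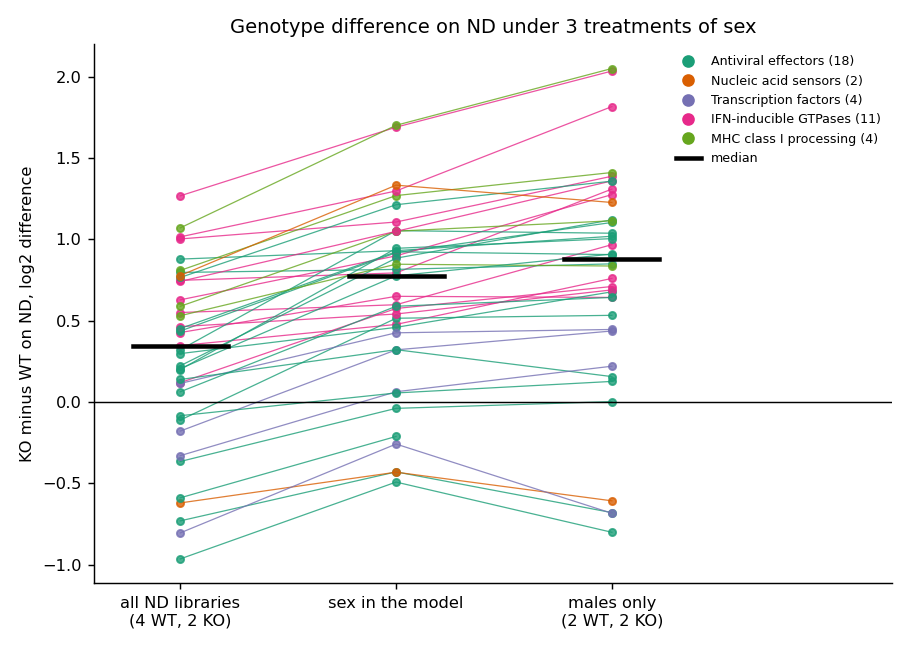
Difference of KO over WT on the ND (y axis, log2 units) for each member under 3 treatments of sex (x axis), with lines joining a member's values and black bars for the medians. The median goes from 0.35 with all ND libraries to 0.78 with sex in the model and 0.88 in males only, and Oasl1, Cmpk2, Ifih1 and Irf7 stay below 0 in all 3.

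The rest of the interferon pathway was examined with lists of its receptors, signal carriers, sensors and further target genes. A list of 21 interferon genes was not analysed here. The 6 receptor chains were all tested and none was called in any of the 4 comparisons. Ifngr1 was the most abundant, between 54.7 and 136, and Ifnlr1, between 2.05 and 9.21, the least. On the ND, 5 of the 6 were lower in KO in the fit (median -0.51), opposite in sign to most members. The KO-ND libraries are male only. With sex in the model the differences were -0.42 for Ifnlr1, -0.29 for Il10rb, -0.45 for Ifngr1 and -0.38 for Ifngr2. They were -0.23 for Ifnar1 and 0.12 for Ifnar2. Ifnlr1 was at 5.33, 6.79, 6.25 and 8 in WT-ND and 4.2 and 3.45 in KO-ND mice, with no overlap (difference -0.71 ± 0.43, limma adjusted p = 0.895). The same order without overlap held for Ifnar1, Ifngr1, Ifngr2 and Il10rb, for Vil1 as given above, and for 13.3% of all genes.

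None of the 11 signalling genes and of the 11 sensing genes tested was called in the 4 comparisons. Of 62 further interferon-stimulated genes tested, 0 were called in the 4 comparisons, and 54 had a positive difference of females over males (median 0.38). In that list, 26 were higher in females at an unadjusted p under 0.05 (beside 19.3% of all genes in either direction) and 4 at an adjusted p under 0.05 (beside 0.194% of all genes higher in females).

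These 4 were H2-D1 (0.85 ± 0.15), which encodes an MHC class I heavy chain, Rtp4 (1.25 ± 0.22), and Uba7 (0.85 ± 0.13) and Ube2l6 (0.91 ± 0.16), the enzymes that attach Isg15 to proteins. Uba7 was at 42.1 and 33.8 in the WT-ND males and 73.2 and 69.1 in the WT-ND females, 41.4 and 42.7 in the KO-ND males, 28.3 and 29.5 in the WT-WD males and 41.5 and 42.2 in the WT-WD females, and 23.3 and 25.4 in the KO-WD males and 59.1 in the KO-WD female. In each group with both sexes its females were above its males.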

How the data were processed

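Terminal ileum mRNA was read on an Ion Proton. The authors aligned the reads to the mouse genome (mm10) in Partek Flow with STAR, quantified transcripts against Ensembl and used DESeq2 for their own tests. The deposited values were taken as RPKM per transcript. No raw counts were used here.

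RPKM was summed per gene symbol, scaled between libraries by trimmed log ratios (30% trimmed by ratio and 5% by level), and put on the scale log2(value + 0.5), which understates changes of low genes. Genes that reached an RPKM of 1 in 2 or more libraries were fitted together in limma 3.58.1 (R 4.3.3) over the 4 groups, with Benjamini-Hochberg adjustment over all 19042 genes. A call needed a minimum fold change of 2 at an adjusted p below 0.01. The scripts were tested on simulated data. For single genes an exact permutation test over libraries (two-sided) was added. The labels do not say that libraries of a group are independent animals, so p-values measure the spread between these libraries.

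The genes named per comparison were the 4 highest and 4 lowest fitted differences, and for sex the members with an adjusted p under 0.05; Tas1r3 and the receptor chains were named whatever their values, and other genes after their values were seen. The members and lists were chosen with earlier results of these data known, and the comparison of the sexes, with its alternatives, was added after the values were seen. Gene positions are from GENCODE M21 (GRCm38) and promoters from RefSeq (GRCm38.p6). The alternatives were other pseudocounts, filters and scalings, sex as a covariate, males only, a replicate block, all 16 columns and each library left out. A gene of the pathway is not reported here.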

Additional observations from a re-analysis of the deposited data

Results flagged for a closer look

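In the 4 WT-WD libraries, Oasl1 stood apart in female 2. Its scaled RPKM there was 43.6, against 10.3 to 11.8 in the other 3, and this gap is 0.9074 of the whole range, above Dixon's critical value for 4 samples. It is 1 of 48 groups of values tested, and chance alone marks about 1 group in 20. The same library had the highest summed enterocyte markers, and their part in the value was not tested.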

How the results depend on the processing

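In the 4 comparisons between groups no member was called under any alternative. At a limma adjusted p under 0.05 with no minimum fold change, the main fit had 0 members. For WD against ND in WT, 1 member was lower at this mark without scaling, beside 3406 of 19042 genes lower. With all 16 columns 1 member was higher, beside 216 of 19083 genes higher. Of 672 alternative values of the named members, 662 kept their direction and side of the threshold and 10 turned: Cmpk2 in WD against ND in KO (-0.10 unscaled, -0.23 with the replicate block, -0.23 in males only, and -0.23 to 0.60 with a library left out), Isg15 (-0.29 to 0.65 with a library left out), Oasl1 (-1.24 to 0.13 with a library left out) and Ifi44 (0.037 with the replicate block and 0.18 in males only) in KO against WT on WD. The cause was not tested. The median of the members in KO against WT on ND was 0.78 with sex as a covariate, 0.83 with the replicate block and 0.88 in males only, against 0.35. Correlations of same-numbered libraries ran from -0.15 to 0.57. Libraries of different numbers were not compared, so whether the numbers pair the libraries cannot be told. The replicate block changed no call of a member. Of all genes, 2 were called in KO against WT on WD in the main fit and 0 with the block.

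For females against males, 0 members were called at the stricter threshold (25 at an unadjusted p under 0.05) and 4 at an adjusted p under 0.05 with no minimum fold change, with a range of 0 to 1 called when a library was left out. The count at an adjusted p under 0.05 was 8 at a mean RPKM of at least 5, 0 in WT alone, WD alone and WT-ND alone, and 0 to 10 with a library left out. Of 100 alternative values of the 4 named members, 54 kept their side of the threshold and 46 kept only their direction.

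Precision is limited by 2 KO-ND libraries, both male, and by the few reads behind low members such as Ifi44. The deposited totals differ between diets, so differences between diets rest on the scaling.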
